A study of Mus musculus with 2 samples.

Results

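The testis surface epithelium is the layer of cells that covers the gonad under the peritoneal cavity. Its nuclei were sought here among nuclei of whole mouse testes at embryonic stage E14.5. Nuclei were kept when they held 2000 to 50000 RNA molecules (UMIs), under 10% mitochondrial UMIs and over 500 transposase cuts in peaks. They were then ranked by the share of their UMIs that came from 7 genes, *Upk3b*, *Upk1b*, *Krt19*, *Podxl*, *Muc16*, *Aldh1a2* and *Tmem132d*. The members are the 400 nuclei of highest share, out of 7492 kept nuclei and 9833 barcodes, which is 5.34% of the kept nuclei. They were chosen by RNA, so every RNA difference between members and other nuclei is given below as a description of the choice. Beyond the minimum number of cuts for a kept nucleus, open chromatin played no part in the ranking.

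Surface epithelium descends from the coelomic epithelium, a mesothelium that lines the body cavity and covers the gonadal ridge. Early in gonad formation this layer gives rise to supporting and interstitial cells, and later it remains as a simple epithelium on a basement membrane. Mesothelia are known for membrane mucins and uroplakins on the free surface, for keratins, for the transcription factor WT1 and for making retinoic acid through ALDH1A2.

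The embryos came from *Nr5a1-cre* males mated to *Rosa-tdTomato* females, each parent homozygous, so a Cre under *Nr5a1* control and a Cre-dependent red reporter were present in all nuclei, and no group without them was compared. One library of RNA and 1 of open chromatin (ATAC, in which a transposase cuts accessible DNA) were made from the same nuclei, and all 9833 barcodes of the matrix were also in the fragment list. How many embryos went into the pool was not stated in the labels or methods used here. Without a replicate library no test was possible, and the 95% intervals below are exact and cover counting error only. Members had a median of 8280.5 UMIs (2052 to 37328) and 2643.5 cuts (518 to 21466), against medians of 8242.5 UMIs and 3339 cuts in the other 7092 nuclei. A level is given in CPM, the UMIs or cuts of a feature in every 1000000 of its group.

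Genome sequence from peaks most open in members is shown first. Of the 10 peaks with the strongest excess of cuts in members, 5 held the letters CATTCC, the core read by TEAD factors of the Hippo pathway, on either strand within their middle 150 bases. The same window held them in 22.6% of the 500 peaks most open in members and in 9.91% of all peaks. In the middle 300 bases contractile marker nuclei, described further on, were close to members for these letters. Of those 5 stretches 4 are printed from the plus strand of GRCm38, 5′ to 3′, with capitals for matches to any of the 10 motifs searched, TEAD reading as CATTCC or GGAATG. All 4 lie outside exons.
Intron of *Nyap2*, chr1:81231611-81231760: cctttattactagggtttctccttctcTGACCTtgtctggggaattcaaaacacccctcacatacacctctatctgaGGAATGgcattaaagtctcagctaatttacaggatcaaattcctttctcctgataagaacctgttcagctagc
Between genes near *Golga7b*, chr19:42241023-42241172: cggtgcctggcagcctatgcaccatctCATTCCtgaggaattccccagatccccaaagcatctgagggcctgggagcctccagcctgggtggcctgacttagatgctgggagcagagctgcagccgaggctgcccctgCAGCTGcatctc
Intron of *Dab1*, chr4:103758486-103758635: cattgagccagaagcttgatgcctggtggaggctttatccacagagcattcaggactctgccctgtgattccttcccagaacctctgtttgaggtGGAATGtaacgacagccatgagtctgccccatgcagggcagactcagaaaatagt
Intron of *Ocln*, chr13:100516562-100516711: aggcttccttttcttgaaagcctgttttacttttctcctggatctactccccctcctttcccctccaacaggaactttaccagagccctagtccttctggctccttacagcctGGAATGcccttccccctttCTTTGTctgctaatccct

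The promoter of *Upk3b*, which encodes a uroplakin of the apical membrane, was the promoter of a ranking gene whose cuts differed most between members and other nuclei. Its 250 bases before the annotated start come from RefSeq (GRCm38.p6, plus strand), with capitals for 1 TEAD match, 1 nuclear receptor match (AGGTCA) and 2 RUNX matches (TGTGGT or ACCACA). Upstream sequence was at hand for only 3 of the 7 ranking genes, *Upk3b*, *Muc16* and *Aldh1a2*.
Upstream of *Upk3b*, chr5:136038246-136038495: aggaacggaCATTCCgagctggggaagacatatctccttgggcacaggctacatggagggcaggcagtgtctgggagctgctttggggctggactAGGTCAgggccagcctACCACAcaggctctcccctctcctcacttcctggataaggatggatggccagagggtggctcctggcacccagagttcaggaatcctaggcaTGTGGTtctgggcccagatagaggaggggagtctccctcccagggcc

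The ranking genes gave a graded score with no gap at the cut. The share of UMIs in the 7 genes was 0.487% in the first nucleus, 0.257% at rank 100, 0.144% at rank 300 and 0.0974% in the last member, and the first nucleus outside stood at 0.0967%. Within 20% of the last member's share lay 37 members above it and 68 other nuclei below it. Members held 4 to 70 UMIs of these genes, with a median of 17, and 372 of 400 had UMIs of at least 3 of the 7 genes. In 16 members only 1 of the 7 genes was seen. *Aldh1a2* gave the most UMIs in 140 members, *Tmem132d* in 116, *Muc16* in 86 and *Podxl* in 48. Most kept nuclei, 4800 or 64.1%, had no UMI of any ranking gene.

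Each ranking gene was many times higher in members, as the choice requires. The retinoic acid enzyme gene *Aldh1a2* stood at 557 CPM in members and 39.7 CPM in other nuclei, and the mucin gene *Muc16* at 443 and 6.73 CPM. *Upk1b*, a uroplakin of the tetraspanin family, stood at 173 and 2.38 CPM and *Upk3b* at 129 and 4.72 CPM. The sialomucin gene *Podxl*, which endothelium also uses, stood at 318 and 18.3 CPM, and *Tmem132d* at 432 and 11.2 CPM. *Krt19*, a keratin of simple epithelia, rested on only 77 UMIs in all, at 12.7 and 0.372 CPM. After thinning each nucleus to 2000 UMIs, *Muc16* was seen in 178 members, or 44.5% (39.6% to 49.5%), in 2 of 398 nuclei picked for Leydig markers and 0 of 390 picked for germ cell markers, where a count of 0 allows a share of up to 0.769% at this thinned depth if 3 nuclei are taken as the limit, with an exact upper end of 0.941%. Before thinning these shares were 73.5%, 1.76% and 1.79%, at median depths of 8280.5, 9428.5 and 13989.5 UMIs. The sets picked by markers are ranges of a marker score and not cell types.

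**Figure D1:**
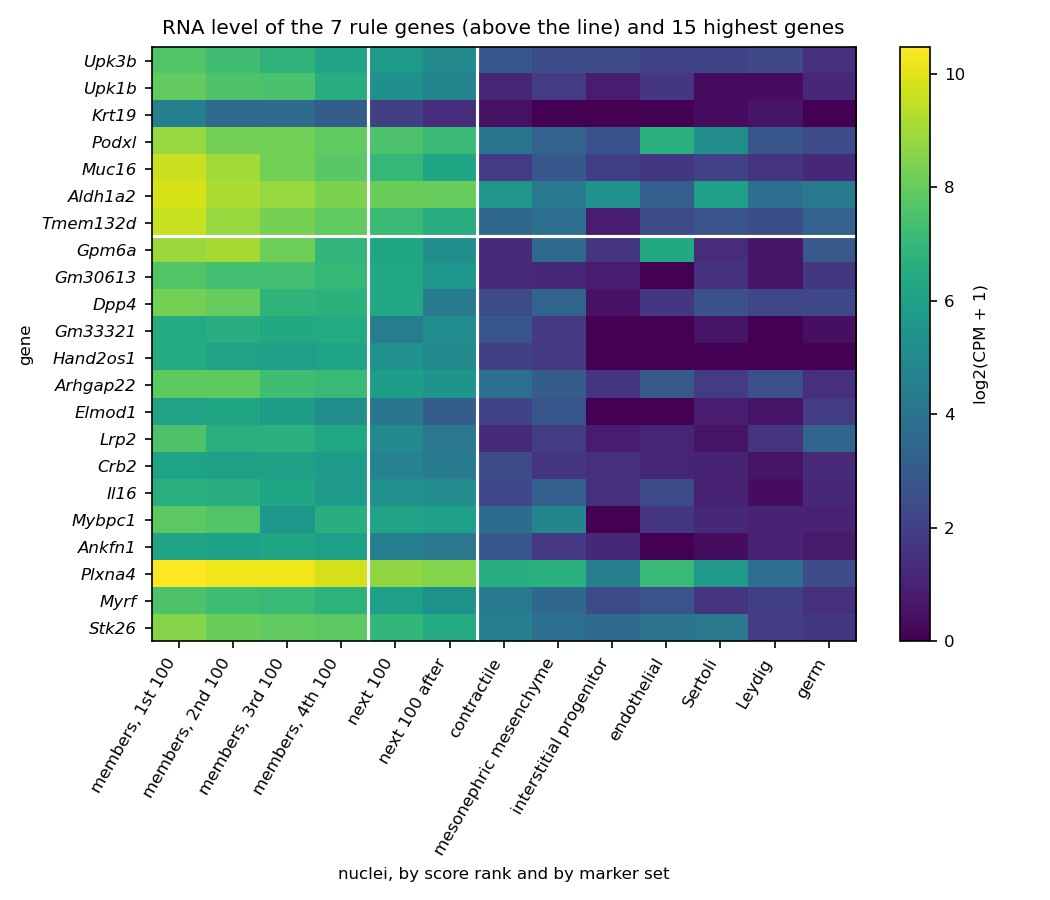
RNA level as log2(CPM + 1), by colour, of the 7 ranking genes (above the white line) and the 15 genes highest in members, for members in blocks of 100 by rank, the 200 nuclei that follow, and sets of nuclei picked by markers of other cell types. For most genes levels step down from the members' blocks to the next nuclei and stand lowest in the marker sets. *Mybpc1* is an exception, at 47.0 CPM in the third block and 68.0 and 58.6 CPM in the next nuclei. *Plxna4*, *Podxl* and *Gpm6a* are also seen in endothelial marker nuclei, at 131, 102 and 80.2 CPM.

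Of 15271 other genes with at least 100 UMIs, 855 (5.60%) were over 2-fold higher in members and 2627 (17.2%) were under 0.5-fold. The 15 highest included genes of membrane and polarity. *Gpm6a*, a neuronal membrane glycoprotein gene also used in mesothelium, stood at 345 CPM in members and 8.10 CPM in others, 42.6-fold (38.7 to 47.0). *Dpp4*, a surface dipeptidase gene, was 34.0-fold higher (30.1 to 38.4), *Lrp2*, the endocytic receptor megalin, 23.0-fold (19.96 to 26.5), and *Crb2*, an apical polarity gene, 23.5-fold (19.3 to 28.6). *Plxna4*, a semaphorin receptor gene, had the most UMIs of the 15, with 1164 CPM against 62.9 CPM, and was seen in 93.3% of members and 20.1% of others. *Arhgap22*, *Elmod1*, *Il16*, *Mybpc1*, *Ankfn1*, *Myrf* and *Stk26* were between 18.5-fold and 25.4-fold higher.

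Of the 15 genes, 3 are long noncoding. *Gm33321* was 30.6-fold higher, and *Gm30613* (37.6-fold) and *Hand2os1* (27.5-fold) overlap counted genes on the opposite strand. *Hand2*, named after its values were seen, a transcription factor gene of lateral mesoderm that overlaps *Hand2os1*, stood at 13.7 CPM in members and 0.957 CPM in others, and how far reads of this pair were kept apart by strand was not tested.

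The 10 lowest genes belong to other cells of the testis. *Kcnip4*, *Fam129a* and *8030451A03Rik* were highest in Leydig marker nuclei, at 6246, 2269 and 2043 CPM, and stood at 40.6, 16.8 and 20.2 CPM in members. *Sycp1*, of the meiotic synaptonemal complex, and *Nr5a2* were highest in germ marker nuclei, with 20.7 and 4.91 CPM in members against 1478 and 341 CPM. *Fam155a*, *Acsbg1*, *Ankrd31*, *Lncpint* and *Gm2044* were also under 0.1-fold.

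The label was compared with RNA of mesothelial genes outside the ranking, which is no independent check because the nuclei were chosen by RNA of such genes. Of 22 such genes, 14 had at least 100 UMIs, 11 of these were over 2-fold higher in members and 1 under 0.5-fold. Their median log2 ratio, after 1 CPM was added to each group, was 2.77, beside -0.20 over all genes tested, and 1.77 over all 22. Besides *Gpm6a* and *Crb2*, *Krt7*, a keratin gene, was 23.1-fold higher (16.6 to 32.2) and *Bnc1*, a basonuclin of mesothelium, 17.0-fold (15.2 to 18.9). The 8 genes under 100 UMIs had little signal in either group. *Msln*, *Krt8* and *Krt18* stood at 2.07, 2.84 and 2.58 CPM in members and 0.120, 0.798 and 0.665 CPM in others. *Muc1*, *Dmkn* and *C3* had 1, 1 and 3 UMIs in members, *Upk1a* stood at 0.517 against 0.944 CPM, and *Anxa8* had no UMI in members and 4 in others. *Cdh1*, the epithelial cadherin gene, was the exception among those counted, at 6.72 CPM in members and 35.8 CPM in others. It was highest in germ marker nuclei, at 164 CPM. Contractile, mesonephric mesenchyme and interstitial progenitor marker nuclei stood below members, at 1.85, 3.30 and 2.44 CPM. *Wt1* stood at 1033 CPM in members and 244 CPM in others. Of the marker sets, Sertoli nuclei came nearest to members in *Wt1*, at 841 CPM, followed by mesonephric mesenchyme nuclei at 489 CPM.

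Markers of other cell types were lower in members for most lists. Summed germ cell markers stood at 65.2 CPM against 403.1 CPM, Sertoli markers at 49.9 against 176 CPM, Leydig markers at 266 against 830 CPM and mesonephric mesenchyme markers at 31.3 against 145 CPM. Of 8 endothelial markers, 6 were under 0.5-fold and only *Kdr*, a VEGF receptor gene, was over 2-fold, at 62.6 against 18.4 CPM. *Kdr* ranged from 58.3 to 70.0 CPM over the 4 blocks of members, whereas *Flt1* stood at 0, 3.07, 1.05 and 37.2 CPM. Of 2000 UMIs per nucleus, 1 member (0.25%) held at least 3 endothelial UMIs, 22 in all, against 1.88% of other nuclei. At least 3 UMIs of interstitial progenitor markers were held by 36 members (9%), against 28.7% of other nuclei. Pericyte markers stood at 66.4 against 73.0 CPM, immune markers at 10.1 against 27.6 CPM, mesonephric tubule markers at 9.05 against 31.3 CPM and erythroid markers at 97.2 against 183 CPM, while *Pax8*, a marker of supporting-like cells, stood at 24.0 against 15.3 CPM. The part of RNA from such cells in the values of members was not tested.

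Of 26 transcription factor genes of the gonad and coelomic epithelium, 21 had at least 100 UMIs, 8 were over 2-fold higher and 4 under 0.5-fold, with a median log2 ratio of 0.80. Here and for the lists that follow, 5.60% and 17.2% of all genes passed these limits, so the 4 lower genes were near the share over all genes. As log2 ratios to contractile, mesonephric mesenchyme and interstitial progenitor nuclei, the medians of this list were 0.18, 0.35 and 0.36. The list summed to 17873 CPM in members and to 13746, 16215 and 8943 CPM in the same sets. *Emx2*, a homeobox gene needed for the gonadal epithelium, stood at 96.4 CPM in members and 14.6 CPM in others, 6.61-fold (5.86 to 7.44). *Wt1* was 4.24-fold higher (4.10 to 4.39). *Nr5a1*, the steroidogenic factor gene, was lower at 14.48 CPM against 85.2 CPM, 0.170-fold (0.128 to 0.221), and the part of the *Nr5a1-cre* transgene in its counts was not tested. *Nr5a1* was highest in Leydig and Sertoli marker nuclei, at 456 and 103 CPM. Contractile, mesonephric mesenchyme and interstitial progenitor nuclei stood at 32.8, 27.4 and 33.4 CPM, and germ nuclei at 3.1 CPM. *Gata4* and *Nr2f2*, named after their values were seen, stood at 596 and 593 CPM and at 381 and 282 CPM in members and others.

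Secreted signals held several wide differences. Among 24 Wnt and R-spondin genes, 23 were counted, with 8 over 2-fold higher and 3 under 0.5-fold, at a median log2 ratio of -0.12. *Rspo1* and *Rspo3*, enhancers of Wnt signaling, stood at 69.8 against 6.86 CPM (10.2-fold, 8.75 to 11.8) and 113 against 11.9 CPM (9.48-fold, 8.44 to 10.7), and the ligand gene *Wnt2b* at 20.7 against 3.06 CPM (6.76-fold, 5.18 to 8.76). In mesonephric mesenchyme marker nuclei *Rspo3* stood at 79.3 CPM and *Rspo1* at 22.5 CPM. The Wnt modulator *Dkk2* was lower, at 6.20 against 26.4 CPM. Of 32 growth factor and receptor genes, 12 were over 2-fold higher and 2 under 0.5-fold, at a median of 0.42. *Fgf9*, a ligand known from testis formation, stood at 185 against 11.6 CPM (16.0-fold, 14.47 to 17.7), and *Pdgfc*, a ligand of PDGF receptors, at 1231 against 104 CPM (11.8-fold, 11.4 to 12.2). *Tgfb3* was 6.12-fold higher (5.17 to 7.21). *Erbb4*, a neuregulin receptor gene, was lower at 105 against 711 CPM, and stood at 4779 CPM in Sertoli marker nuclei.

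Within the retinoic acid list, the choice had used *Aldh1a2* and no other of the 18 genes. *Aldh1a1*, a second enzyme of the same step, was lower in members at 45.5 CPM against 313 CPM (0.145-fold, 0.125 to 0.169), and *Cyp26b1*, which degrades retinoic acid, stood at 12.1 against 38.3 CPM (0.317-fold, 0.233 to 0.423). Both were highest in Leydig and Sertoli marker nuclei, *Aldh1a1* at 996 and 1057 CPM, while contractile and mesonephric mesenchyme nuclei stood near members, with 53.5 and 51.5 CPM of *Aldh1a1*. Of 13 counted genes, *Aldh1a2* was the only one over 2-fold higher and 3 were under 0.5-fold, and the median log2 ratio was -0.07.

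Lists of epithelial structure held few genes past either limit, and their counts are to be read against those shares. Of 29 junction and polarity genes, 21 were counted, with 2 over 2-fold higher and 4 under 0.5-fold, at a median log2 ratio of 0.41. The higher were *Crb2* and *Cdh3* (P-cadherin, 319 against 50.4 CPM), and *Cdh1* and the splicing factor gene *Esrp1* were among the lower. *Esrp1* stood at 5.95 CPM in members, 215 CPM in germ and 1.48 CPM in contractile nuclei. The list summed to 2225 CPM in members, 2324 CPM in germ and 2034 CPM in Sertoli marker nuclei. As log2 ratios to contractile, mesonephric mesenchyme and interstitial progenitor nuclei, its medians were 1.23, 1.60 and 2.16 over 9, 8 and 8 genes. These genes had at least 100 UMIs over members and the set, which a gene can reach through members alone. The median log2 ratios over all genes were 0.02, 0.04 and 0.04. Of 25 basement membrane genes, 23 were counted, with 4 over 2-fold higher and 5 under 0.5-fold, at a median of 0.01. The laminin chain genes *Lama5* and *Lama2* differed in opposite directions. *Lama5* stood at 37.7 against 3.27 CPM (11.5-fold, 9.34 to 14.2) and *Lama2* at 161 against 727 CPM (0.221-fold, 0.204 to 0.239). The laminin receptor chain *Itga3* was 7.99-fold higher (6.83 to 9.32). Of 17 fibrillar collagen and matrix genes, 2 were higher (*Tnc* and *Col5a2*) and 2 lower (*Vcan* and *Fbn2*), at a median of 0.24. The list summed to 4024 CPM in members and 3462 CPM in others. Contractile, mesonephric mesenchyme and interstitial progenitor nuclei stood above members, at 6526, 6665 and 5710 CPM. As log2 ratios to these sets, the list's medians were -0.66, -0.70 and -0.06. *Col5a2* was as high in contractile and mesonephric mesenchyme nuclei, at 555 and 584 CPM against 546 CPM in members, and *Tnc* stood at 78.6 CPM in members, 74.5 CPM in contractile and 113 CPM in Leydig nuclei. Of 11 genes of epithelial to mesenchymal transition none was over 2-fold higher and 1 was under 0.5-fold, and *Zeb2*, a repressor of epithelial genes, stood at 406 against 1464 CPM (median of the list -0.33). Of 12 Hippo pathway genes, 11 were counted and 2 were over 2-fold higher, at a median of 0.55. These were *Tead4* (27.9 against 4.33 CPM) and the coactivator *Wwtr1* (339 against 158 CPM). In endothelial nuclei *Tead4* stood at 42.8 CPM and *Wwtr1* at 300 CPM, and in Sertoli nuclei *Wwtr1* stood at 356 CPM. As log2 ratios to contractile, mesonephric mesenchyme and interstitial progenitor nuclei, the Hippo medians were 0.09, 0.60 and 1.11. The list summed to 1761 CPM in members and 1915 CPM in Sertoli nuclei.

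**Figure D2:**
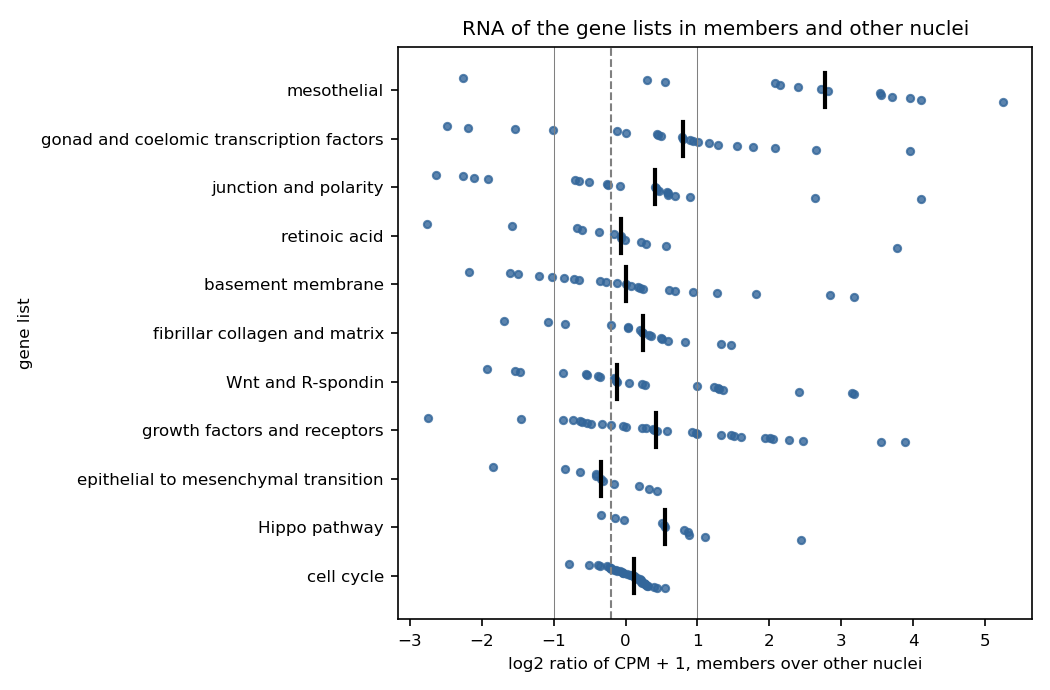
Log2 ratio of CPM + 1, members over other nuclei, for each gene of 11 lists with at least 100 UMIs (points), with the list's median (black bar) and the median over all genes tested (dashed line, -0.20). Thin lines mark 2-fold either way, and the mesothelial genes stand farthest to the right with a median of 2.77, while all 40 cell cycle genes lie within 2-fold.

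Cell cycle genes were close to the level of other nuclei. All 40 genes were counted and all lay within 2-fold, and their sum was 3394 CPM in members and 3441 CPM in others, a ratio of 0.986 (0.969 to 1.004). Nuclei with at least 20 of 2000 UMIs in these genes made up 3.75% of members and 5.44% of others. In Leydig marker nuclei the sum was 595 CPM and in germ marker nuclei 4404 CPM. The 4 blocks of members gave 3844, 3158, 2970 and 3625 CPM, with no order by rank.

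Members varied along the rank in more than the ranking genes. The summed mesothelial list stood at 3708, 3460, 3171 and 2719 CPM in the 4 blocks and at 1567 and 1510 CPM in the next 2 blocks of 100 nuclei. *Wt1* varied little across the 4 blocks, at 1111, 1011, 1067 and 962 CPM, and lower in the next 100 nuclei at 616 CPM. *Gpm6a* varied more, at 483 and 530 CPM in the first 2 blocks and 285 and 119 CPM in the others. Interstitial progenitor markers stood at 286, 380, 432 and 724 CPM across the blocks, and *Erbb4* at 33.8, 20.4, 131 and 217 CPM. The fourth block was also highest in endothelial (204 CPM) and germ cell markers (118 CPM), and its part in the ratios was not tested.

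The nearest of 7 marker sets in mean log RNA, outside all marker genes, were the contractile (distance 17.0), mesonephric mesenchyme (18.7) and interstitial progenitor (23.3) sets, and the farthest was the germ set (36.6). *Bnc1* separated members from all 3 near sets, at 159 CPM against 3.69, 4.96 and 0.814 CPM, as did *Fgf9*, at 185 CPM against 4.06, 5.95 and 1.63 CPM. *Pdgfc* stood at 183 CPM in contractile, 168 CPM in mesonephric mesenchyme and 14.7 CPM in interstitial progenitor nuclei. *Meis2* and *Lhx9*, homeobox genes named after their values were seen, did not separate members from all 3 sets. *Meis2* stood at 1632 CPM in members and at 1723, 2480 and 450 CPM in contractile, mesonephric mesenchyme and interstitial progenitor nuclei. *Lhx9* stood at 304 CPM in members and at 258, 82.9 and 276 CPM in the same sets. *Nr2f2* was lower in members than in all 3 sets, at 381 CPM against 506, 483 and 547 CPM. Contractile markers summed to 276 CPM in members and 164 CPM in others, mostly from *Mylk* (243 CPM), while the smooth muscle genes *Myh11* and *Acta2* stood at 8.79 and 12.7 CPM in members and at 308 and 233 CPM in contractile nuclei.

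Chromatin was then read as a measure that the choice had not used. Each nucleus was placed by its peaks alone, and its 30 nearest nuclei were counted. Among the neighbours of a member a median of 86.7% were members (quartiles 80% and 90%), where members make up 5.34% of the kept nuclei. At least 50% of the neighbours were members for 351 of 400 members, 87.8%. For other nuclei the median was 0%, and 151 of 7092, 2.13%, reached 50%. The first 100 members all reached 50%, and 92, 89 and 70 did so in the following blocks, 44 in the next 100 nuclei and 23 in the 100 after. The remaining neighbours of members were most often nuclei of the next 200 ranks (9.39%) or of no marker set (10.1%), and each marker set gave at most 1.13%. Measured in the same way against their own set, the medians were 83.3% for mesonephric mesenchyme, 73.3% for Leydig, 50% for germ, 43.3% for Sertoli, 40% for endothelial, 30% for contractile and 16.7% for interstitial progenitor nuclei. A set that covers only part of its cell type has a low value by construction.

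**Figure D3:**
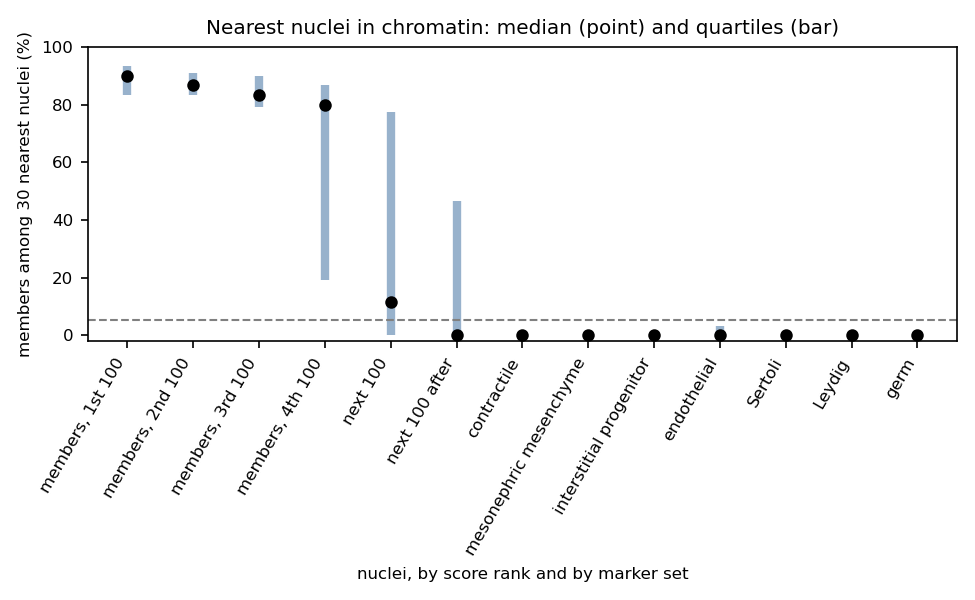
Share of members (%) among the 30 nearest nuclei in chromatin, median (points) and quartiles (bars), for members in blocks of 100 by rank, the next 200 nuclei and 7 marker sets, with the share of members among all kept nuclei dashed (5.34%). The 4 blocks of members have medians of 90%, 86.7%, 83.3% and 80%, the next 100 nuclei 11.7%, and the marker sets 0%.

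The 2 assays did not always place a nucleus alike. The 49 members with under 50% of members among their neighbours had a median of 13361 UMIs, against 8060 UMIs in the other 351, and carried more RNA of interstitial progenitors (800.9 against 395 CPM), endothelium (280 against 87.8 CPM) and germ cells (140 against 48.8 CPM). Their mesothelial sum was 2190 CPM against 3465 CPM. In the other direction, the 151 non-members whose neighbours were mostly members had a mesothelial sum of 1971 CPM, against 470 CPM in the remaining 6941 nuclei. *Wt1* stood at 824 and 231 CPM, *Bnc1* at 73.4 and 7.94 CPM and *Pdgfc* at 767 and 89.7 CPM in these nuclei. Most of the mesothelial sum thus came from *Wt1* and *Pdgfc*. Together 502 kept nuclei had mostly members as neighbours. Other genes were farther from the 351 members, with *Gpm6a* at 67.3 CPM in the 151 nuclei against 372 CPM, *Muc16* at 74.0 against 476 CPM, *Elmod1* at 5.46 against 63.3 CPM and *Fam155a* at 396.1 against 35.2 CPM. With the next 400 nuclei by rank left out of the others, the median log2 ratio of the mesothelial genes was 2.85 in place of 2.77.

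Promoters of the ranking genes were more open in members. Promoter peaks are those within 1 kb of a gene's annotated start interval, so a gene with a wide interval can have several. In those of the ranking genes members had 255 cuts, 204 CPM, and other nuclei 2128 cuts, 78.0 CPM. This is a ratio of 2.61 (2.29 to 2.98). The ratio was 3.25, 3.28, 2.12 and 2.07 in the 4 blocks of members, 2.10 in the next 100 nuclei and 1.498 (1.11 to 1.98) in the 100 after. Germ marker nuclei stood at 1.65 (1.41 to 1.93) and endothelial ones at 1.42 (0.931 to 2.07), and the other 5 sets between 0.857 and 1.01. Both ends of a fragment are usually counted (87.4% of the peak counts above 0 were even), so intervals on cuts are too narrow. *Upk3b*, whose upstream sequence is printed above, had 59 cuts in members and 89 in others, 14.45-fold (10.2 to 20.3). *Upk1b* followed with 36 and 86 cuts, 9.13-fold (6.01 to 13.6), and *Krt19* with 34 and 130 cuts, 5.70-fold (3.79 to 8.37). *Podxl* and *Tmem132d* were 1.78-fold (1.34 to 2.32) and 1.84-fold (1.05 to 3.03). For *Aldh1a2* (1.19-fold, 0.867 to 1.60) and *Muc16* (1.82-fold, 0.476 to 4.96, from 4 member cuts) the interval included 1. Whole fragments within 1 kb of the start interval gave 9.08-fold (5.91 to 13.7) for *Upk3b*, 7.39-fold for *Upk1b* and 4.57-fold for *Krt19*. *Muc16* stood at 2.44-fold (1.91 to 3.08) by fragments, 80 in members and 726 in others, and *Podxl* at 1.78-fold. Most of the *Muc16* fragments lay outside its 1 promoter peak, which held 4 and 48 cuts, so this ratio is of a wider stretch. For *Tmem132d* (1.68-fold, 0.787 to 3.19) and *Aldh1a2* (1.196-fold, 0.799 to 1.73) the interval of the fragments included 1.

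Promoter ratios of the 15 highest genes were smaller than their RNA ratios. Of the 15 highest genes 13 had a promoter peak, all 13 ratios were above 1, from 1.36 to 5.47, and in 10 the interval excluded 1. At *Ankfn1*, *Arhgap22*, *Hand2os1* and *Il16* the ratio pools 18, 9, 4 and 4 peaks of a start interval. Over all 13952 promoters with at least 20 cuts 48.6% of ratios were above 1, and over those of genes with an RNA ratio above 4 80.1%. By whole fragments *Lrp2*, 1 of the 10, stood at 1.77-fold with an interval of 0.995 to 2.95. The widest was at *Gm33321*, with 79 and 315 cuts, 5.47-fold (4.22 to 7.02). Of 22 mesothelial genes 17 had a promoter peak, 15 ratios were above 1 at a median of 1.32, and in 4 the interval excluded 1. Promoters of *Bnc1* (2.47-fold, 1.71 to 3.46), *Rspo1* (2.33-fold, 1.70 to 3.13), *Lama5* (2.26-fold, 1.60 to 3.11) and *Wt1* (1.75-fold, 1.44 to 2.11) were also more open, while the interval included 1 at *Pdgfc* (1.32-fold), *Wnt2b* (1.24-fold), *Rspo3* (1.16-fold), *Tgfb3* (1.09-fold) and *Fgf9* (0.974-fold). At *Nr5a1* cuts were fewer, 0.558-fold (0.433 to 0.709). Across all genes with at least 20 promoter cuts, the median promoter ratio was 1.40 for 267 genes with an RNA ratio above 4, 1.001 for 11029 genes between 0.5 and 2 and 0.839 for 2132 genes under 0.5. Genes are not independent replicates, and those numbers describe these libraries only.

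**Figure D4:**
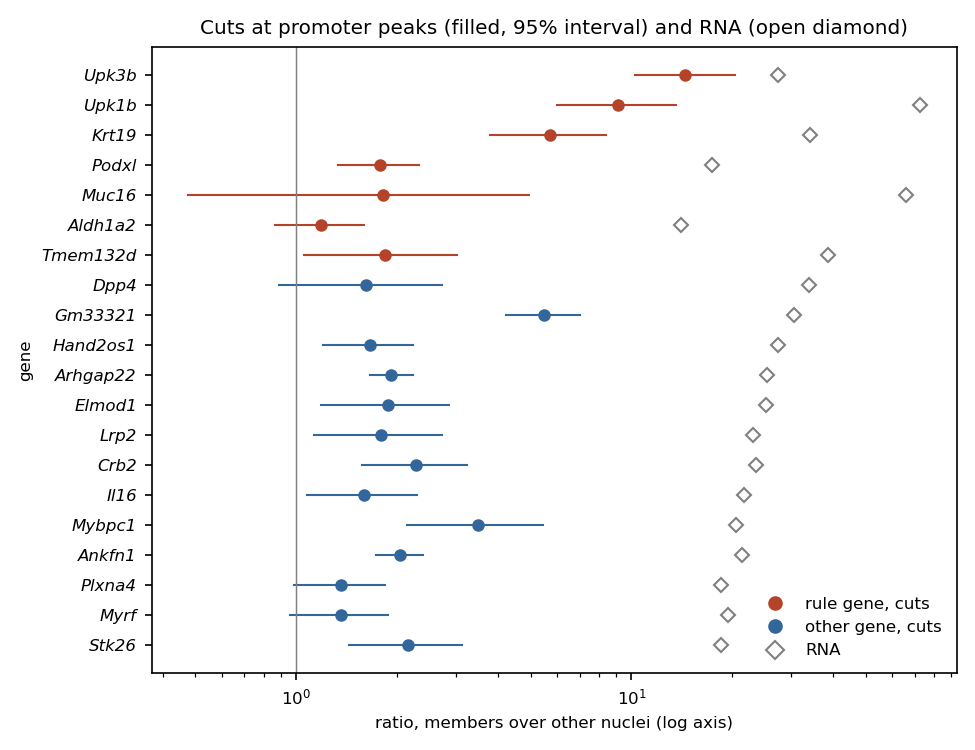
Ratio of members to other nuclei (log axis) for cuts in peaks within 1 kb of the annotated start interval and for RNA (open diamonds). Filled points with 95% intervals give the cuts, red for ranking genes and blue for others. Shown are the ranking genes and those of the 15 highest genes with a promoter peak. All promoter ratios lie above 1 and below the RNA ratio of the same gene, with *Upk3b* at 14.45, *Upk1b* at 9.13 and *Aldh1a2* at 1.19.

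Over all peaks, 109016 had at least 20 cuts, of which 11985 (11%) were over 2-fold higher in members and 32730 (30%) under 0.5-fold. Few cuts stand behind a single peak in 400 nuclei, 1250979 in all. The whole interval lay above 2 for 2827 peaks and below 0.5 for 1199 peaks.

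The 10 peaks most open in members, by the lower end of the interval, all lay at least 6002 bases from the start of a coding gene. Of these 9 are described. The first, in an intron of *Lrrc66* (chr5:73612623-73613523), had 54 cuts from 29 members and 37 cuts from 21 other nuclei, 31.8-fold (20.6 to 49.7). The peak in an intron of *Dab1* (chr4:103758141-103758981), an adaptor of reelin signaling, had 26 and 21 cuts, and *Dab1* RNA stood at 1455 against 153 CPM, 9.51-fold (9.21 to 9.82). A peak over *Myo18a* (chr11:77847897-77848773) that touches an exon had 77 and 78 cuts. Peaks in introns of *Nyap2* (chr1:81231462-81231909), *Astn2* (chr4:65847593-65848480) and *Ocln* (chr13:100516119-100517155) and 3 intergenic ones nearest to *Zic4* (chr9:91141842-91142748), *Golga7b* (chr19:42240623-42241572) and *Top1* (chr2:160548327-160549214) were between 23.7-fold and 32.7-fold. RNA of a gene that holds the peak stood at 2.13-fold for *Astn2*, 0.839-fold for *Myo18a* and 0.659-fold for *Ocln*. Among the nearest coding genes, RNA of *Trim32* stood at 1.02-fold, *Top1* at 0.879-fold, *Gtf2h2* at 0.873-fold and *Pipox* at 0.157-fold.

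Peaks without any cut in members were also seen. The 5 lowest, chosen after their values were seen, had no cut in members and 469 to 542 cuts in other nuclei. One lies between genes 24010 bases from the start of *Gata4* (chr14:63295702-63296517), where the 469 cuts of others came from 248 nuclei. The upper end of the interval of its ratio was 0.172, which is too low because cuts mostly come in pairs. This peak was also low in germ, endothelial and Sertoli marker nuclei, at 3.04, 4.09 and 6.18 CPM. In the other marker sets it stood at 12.5 to 30.2 CPM. Cuts at the *Gata4* promoter were 0.653-fold (0.473 to 0.882). Whole fragments within 1 kb of its start interval were 0.853-fold, with 1 inside the limits (0.672 to 1.07). *Gata4* RNA was 1.005-fold (0.963 to 1.05).

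The 500 peaks most open in members lay mostly far from gene starts. Only 5 of them, 1%, had their middle within 1 kb of the start of a coding gene, against 12.6% of all peaks. Where the nearest coding gene had at least 100 UMIs, its RNA was over 2-fold higher in members for 133 peaks, 33.2% of these, against 9.94% over all peaks. Of 9 genes with at least 100 UMIs and 3 such peaks, *Lrfn2* (5.41-fold), *Tenm4* (3.11-fold) and *Mpdz* (3.03-fold) were over 2-fold higher in RNA, and the other 6 were between 0.718-fold and 1.40-fold.

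Motif letters were counted on both strands in the middle 300 bases of each peak. CATTCC of TEAD factors was in 178 of the 500 peaks, 35.6% (31.4% to 39.97%), and in 18.5% of all peaks. TAATTA of homeobox factors was in 16.2% (13.1% to 19.7%) against 7.61%, AGATAA of GATA factors in 25.8% (22.0% to 29.9%) against 17.3%, GTGGGNG of WT1 or EGR factors in 36.4% (32.2% to 40.8%) against 29.4%, and TGANTCA of AP-1 in 12.4% (9.64% to 15.6%) against 8.89%. AGGTCA of nuclear receptors was less frequent, in 13% (10.2% to 16.3%) against 22.5%. SOX (ACAAAG), forkhead (TGTTTAC), E-box (CAGCTG) and RUNX (TGTGGT) letters were in 18.8%, 4.80%, 23.0% and 17.6% against 22.0%, 4.19%, 27.3% and 18.2%. The median GC content was 48% in the 500 peaks and 50% in all, and the shares moved little when peaks within 1 kb of a start were left out (TEAD 35.8% against 19.7%). The same count in the 500 peaks most open in each marker set gave TEAD letters in 32.8% for contractile nuclei and in 11.2% to 21.8% for the other 6 sets. For AGGTCA it gave 16.4% in contractile, 44.4% in Leydig and 35.2% in Sertoli nuclei, and 20.6% to 28.2% in the rest. Homeobox letters were in 17.8% for contractile and for interstitial progenitor nuclei and in 4.40% to 8.40% for the other 5 sets. GATA letters were in 34.4% for interstitial progenitor, 28% for Sertoli and 27.6% for Leydig nuclei, and AP-1 letters in 13.2% for contractile nuclei, of which only the 34.4% lay outside the interval of the members' share, while WT1 or EGR letters were in 16.6% to 32.6% over the 7 sets. A match is a description of letters and shows no binding.

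**Figure D5:**
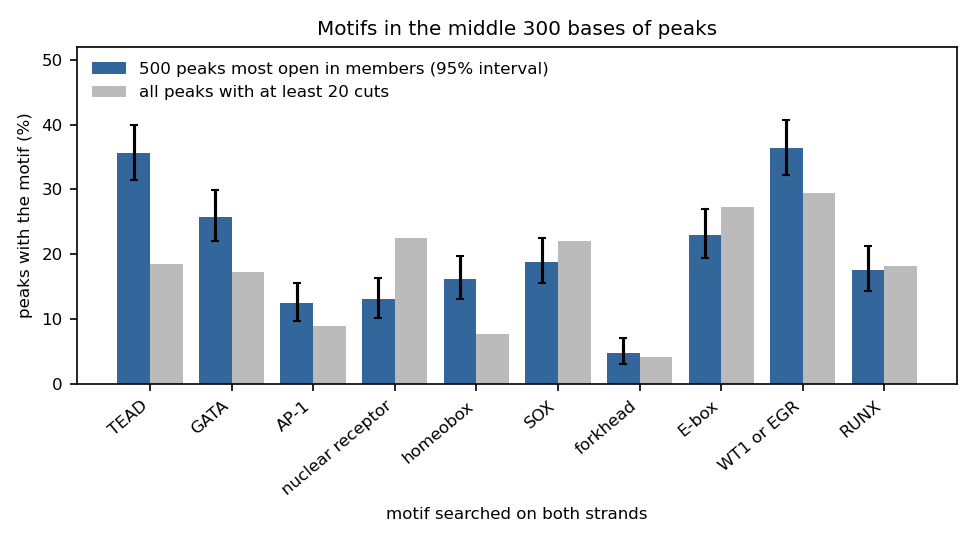
Share of peaks (%) whose middle 300 bases hold each motif on either strand, for the 500 peaks most open in members (blue, with exact 95% intervals) and for all peaks with at least 20 cuts (grey). TEAD letters are in 35.6% and 18.5%, homeobox letters in 16.2% and 7.61%, and nuclear receptor letters in 13% and 22.5%.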

How the data were processed

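RNA and open chromatin of the same nuclei of E14.5 testes were measured by 10x multiome, with 1 library each. The authors ran Cell Ranger ARC 2.0.1 on mm10 and deposited raw counts without normalization (RNA molecules by gene, transposase cuts by peak), together with a fragment list (58448458 unique fragments, 93.6% in barcodes of the matrix). Members and gene lists were chosen with earlier results of these data known.

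Counts were summed over nuclei and divided by group totals (CPM). Ratios have exact conditional binomial intervals and shares Clopper-Pearson intervals at 95%. The named genes are the 15 highest and 10 lowest by the interval bound nearest 1, with at least 100 UMIs in all and 50 CPM in the higher group, the ranking genes and up to 4 genes of each list. Peaks were named likewise, with at least 20 cuts. Nuclei were placed in chromatin by TF-IDF weights of the peaks and 30 components, of which the one following depth (r = 0.948) was left out. Marker sets hold up to 400 non-members (80 for endothelium), and 63 nuclei in more than 1 set were dropped. Scripts used numpy 2.4.6, scipy 1.17.1 and pysam 0.24.0, and were tested on simulated data. Of the 32285 genes, 32235 matched GENCODE M21 by ID. No doublets or free RNA were removed in the main values. Scrublet (scanpy 1.11.5) placed 20 members among the 6% of highest score, 5.00% of members against 6.06% of others. Alternatives covered the ranking genes, depth, number of members, doublets, filters, minimum counts, weights, pseudocount, fragments and neighbours. Those on the next 400 nuclei and on interval bounds were chosen after seeing the data. One of the 10 named peaks and 1 list gene are not reported here.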

Additional observations from a re-analysis of the deposited data

How the results depend on the processing

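Of 57 values under alternatives, 36 stayed within the limits set for a move (1.5 times for counts, otherwise the interval or quartiles of the main value), and no ratio changed direction apart from that of the cell cycle genes, whose interval included 1. Genes past 2-fold numbered 3482, and 1640 with a stricter filter on nuclei (4636 kept, sharing 217 members), 5924 at a minimum of 20 UMIs and 1615 by interval bounds. Peaks past 2-fold numbered 44715, and 22161 at a minimum of 100 cuts and 4026 by interval bounds, where 2827 were higher and 1199 lower in members, against 11985 and 32730 by the ratio alone. For genes the same bounds gave 588 higher and 1027 lower, against 855 and 2627. The median log2 ratio of mesothelial genes was 2.77, and 2.63 after ranking at 2000 UMIs, 2.35 with 600 members, 2.22 with the stricter filter, 2.58 as means per nucleus and 1.98 at a pseudocount of 10 CPM. The promoter ratio of the ranking genes was 2.61, and 3.18 with 200 members and 2.17 with the stricter filter. The median share of members among chromatin neighbours was 86.7%, and 73.3% after ranking at 2000 UMIs, 50% with 200 members, 93.3% with 600 and 93.3% with the stricter filter. Its lower quartile was 80% in the main choice, but 23.3% with 600 members and 6.67% with the stricter filter. The cell cycle ratio was 0.986, and 1.005 after ranking at 2000 UMIs, 1.01 with 200 members, 0.950 with 600, 0.945 with the stricter filter and 0.952 as means per nucleus. With 200 members the neighbour share has fewer members to find, and fewer genes or peaks pass a higher minimum. The cause of the other moves was not tested. No paired analysis was possible because each assay has 1 library and no result comes from a test. Depth limits single promoters, where members often have under 50 cuts.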
